A study of Rattus with 26 samples.

Results

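Hippocampal RNA was compared between aged rats that had received insulin aspart, a fast-acting analog of human insulin, and aged rats that had received saline. The comparison used 15 of the 26 arrays of the series, 7 from aspart animals and 8 from saline animals, with each array's group taken from its sample title and the age at the end of the study set at 21 months. All animals were male rats of the inbred F344 strain, and 1 array was made from each animal's right hippocampus. The animals of both groups were 18 months old at the start, were dosed through the nose every day for 12 weeks, and were tested in a water maze during the final week. The other 11 arrays came from 5 aspart and 6 saline animals that were 5 months old at the end, and they enter here through the shared estimate of the spread and through the test of whether the effect differed with age. The question of the comparison was whether long-term aspart changed gene expression in the aged hippocampus and, for genes that were not called, how large a change the arrays could still have missed.

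Insulin binds the insulin receptor, a tyrosine kinase that also forms hybrids with the receptor for insulin-like growth factor 1, and the signal passes through IRS adaptors to PI3 kinase and AKT and through a second branch to the MAP kinases. AKT restrains the FOXO transcription factors and GSK3, and it activates the mTOR complex that drives protein synthesis. In the hippocampus the receptor is abundant in neurons and glia, and its signalling has been linked to synaptic plasticity and memory. Both groups underwent the same dosing routine and the same maze test.

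The arrays gave log2 values for 15037 named genes, of which 11475 were bright enough to test. The RNA integrity number was 7.29 ± 0.43 (SD, n = 7) in the aspart animals and 7.33 ± 0.27 (SD, n = 8) in the saline animals. Pearson correlations across transcript clusters between any pair of aged arrays ran from 0.973 to 0.994. The array of aged aspart animal 6 stood apart. The separation of its positive from its negative control features, given as an area under the curve, was 0.872, against 0.815 to 0.841 on the other 14 aged arrays. This array also held the most hemoglobin RNA. Aged aspart animal 2 had a high level of Gabra6, a GABA receptor subunit of cerebellar granule neurons, as described further on. Hippocampal markers were present on all aged arrays: the means of the lists for CA pyramidal and dentate granule neurons ran from 9.69 to 10.04 and from 10.24 to 10.62, above the median of the negative control features at 6.38. The lists for cortical (8.27 to 8.66), striatal (7.88 to 8.34) and thalamic and habenular neurons (7.36 to 8.08) lay above it too. These means therefore do not show that the tissue was free of neighbouring regions. Whole tissue was measured, so fewer cells of a type and less RNA per cell cannot be told apart.

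No gene passed the test for aspart in the aged hippocampus. With limma and Benjamini-Hochberg adjustment, 0 of 11475 genes had an adjusted p under 0.05, and 0 had one under 0.1. At an unadjusted p under 0.05 there were 538 genes, 4.69% of those tested, where an even spread of p would give 574. Of these, 332 were higher in the aspart animals (2.89%) and 206 were lower (1.8%). Changes were small in both directions: their median size was 0.10 on the log2 scale, and 53.3% of all tested genes had a value above 0. In only 11 genes was the measured change larger than 1.5-fold, and in 4 of those it exceeded 2-fold. Those 4 were Ttr, which encodes the thyroid hormone carrier transthyretin of the choroid plexus, and the hemoglobin genes Hba-a1, Hbb and Hbbl1. The count at an unadjusted p under 0.05 moved both ways with single animals. It was 320, or 2.79%, without aged aspart animal 6 and 805, or 7.02%, without aged aspart animal 3.

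**Figure D1:**
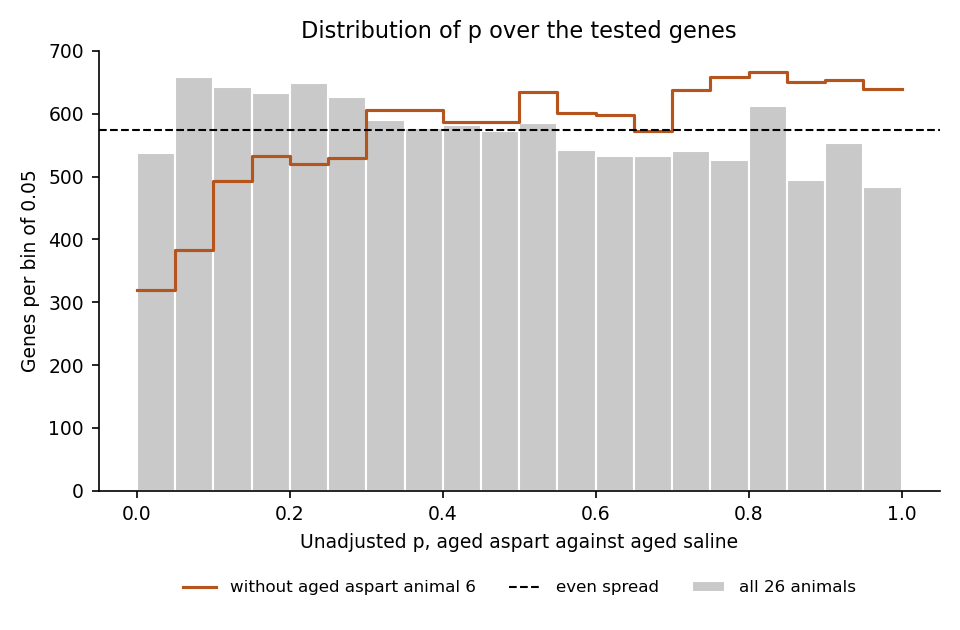
Number of tested genes in each bin of unadjusted p (width 0.05) for aged aspart against aged saline animals. Grey bars use all 26 animals, the line leaves out aged aspart animal 6, and the dashed line marks an even spread (574 genes in each bin). The lowest bin holds 538 genes with all animals and 320 without animal 6, so in that bin neither stands above the even spread. With all animals, each bin from 0.05 to 0.3 holds 627 to 658 genes, above the even spread.

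The arrays did exclude large changes of the measured signal for most genes. For each gene the 95% interval of the aspart effect was set against a fold in either direction, and the fold was excluded where the whole interval lay inside it. A 2-fold change was excluded for 11452 genes (99.8%), a 1.5-fold change for 10303 genes (89.8%), and a 1.2-fold change for 914 genes (7.97%). The half-width of the interval was 0.29 at the median gene, which is 1.22-fold, and ran from 0.22 at the 10th percentile to 0.37 at the 90th. The end of the interval farther from 0 lay at 1.32-fold for the median gene and at 1.502-fold for the 90th percentile. These figures hold for each gene taken alone. With intervals widened to hold for all 11475 genes at the same time, a 2-fold change was excluded for 7963 genes (69.4%), a 1.5-fold change for 507 (4.42%) and a 1.2-fold change for 0.

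Brighter genes were bounded more tightly. The share of genes with a 1.5-fold change excluded was 84.0%, 87.5%, 92.4% and 95.2% over 4 equal bins of the tested genes, from the dimmest to the brightest. The dimmest bin had mean levels of 4.49 to 6.39, where the median of the negative control features was 6.38. Of all tested genes, 75.0% had a mean above that median. For genes near or below it the interval bounds the array signal, and it cannot exclude a change in the RNA itself. The median half-width narrowed from 0.33 to 0.23 over the same bins. At the other end of the scale, 4 genes had an interval lying wholly beyond 1.2-fold and 0 had one wholly beyond 1.5-fold. In the young animals, with 5 and 6 arrays, the share with a 1.5-fold change excluded was 82.2%.

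**Figure D2:**
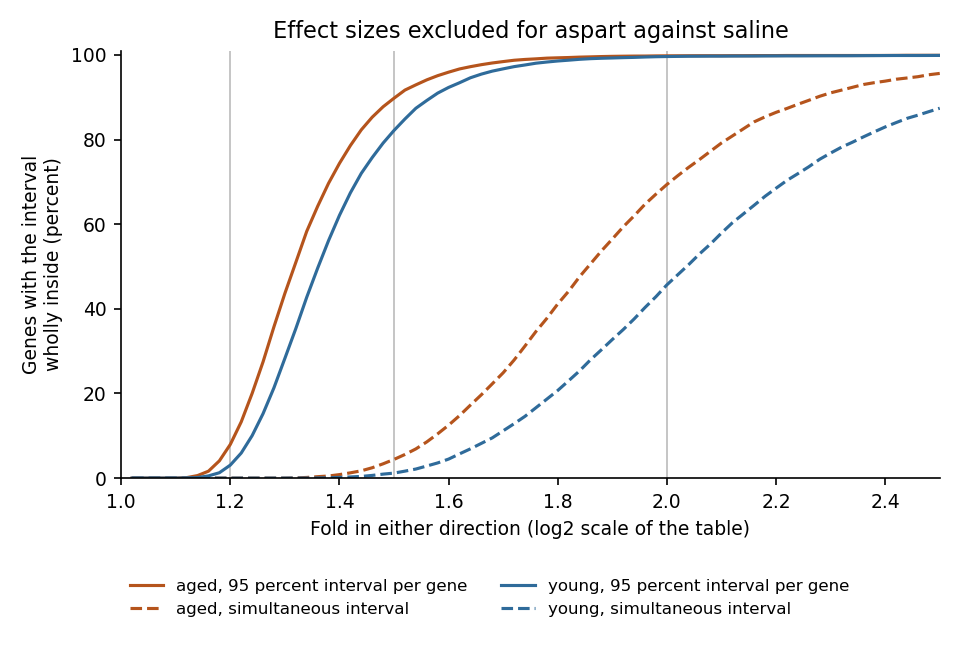
Percent of the 11475 tested genes whose interval for aspart against saline lies wholly inside a given fold in either direction, with the fold on the horizontal axis. Solid lines are 95% intervals for each gene, dashed lines are intervals that hold for all genes together, and grey verticals mark 1.2-fold, 1.5-fold and 2-fold. The aged curve reaches 89.8% at 1.5-fold and 99.8% at 2-fold, above the young curve.

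The interval reached past 2-fold for 23 genes. Of these, 5 were hemoglobin genes (Hba-a1, Hba-a3, Hbb, Hbb-b1 and Hbbl1) and 7 belonged to the lists of choroid plexus and meningeal fibroblast markers: Ttr, Kcnj13, Kl, Sostdc1, Ogn, Igf2 and Ptgds. The other 11 included Gabra6, Slc2a12, which encodes a glucose transporter, Sgk1, a kinase induced by glucocorticoids and by insulin, and C1ql2, a secreted protein of dentate granule neurons. Each interval uses the spread of all 4 groups, the young animals included. The SE was 0.48 for Kl and 0.50 for Igf2, where their pooled SD among the aged animals was 0.23 and 0.38. Their width is therefore not a measure of spread among the aged animals alone. With only the 15 aged arrays, a 2-fold change was excluded for 99.90% of genes, against 99.80% with all arrays. Ttr had the widest interval of any gene. Its log2 value was 6.39, 7.68 and 8.63 (lowest, median and highest) in the aspart animals and 7.10, 8.56 and 15.04 in the saline animals. The saline range came from 3 animals: 14.97 in animal 5, 15.04 in animal 7 and 10.57 in animal 6, with all others at 9.09 or below. The fitted difference was -2.27 ± 1.43 (SE), and its interval allowed anything from a 35.9-fold decrease to a 1.55-fold increase. All 7 tested choroid plexus genes had values below 0, with a median of -0.22, where 53.3% of all tested genes were above 0. None of the 7 had an unadjusted p under 0.05. The median was -1.17 under a stricter brightness limit, which kept only Ttr and Enpp2 of the 7. It turned to 0.17, with 6 of 7 above 0, when the mean of this same list was a covariate, and it ran from -0.31 to -0.15 when single aged animals were left out. Whether the amount of choroid plexus in the dissected tissue had a part in this was not tested.

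The hemoglobin genes varied widely among the animals of both groups. Hba-a1, an alpha globin gene, stood at 9.04, 12.60 and 18.42 in the aspart animals and at 8.70, 9.51 and 15.43 in the saline animals. Hbb, a beta globin gene, stood at 5.43, 7.28 and 14.64 in the aspart animals and at 5.33, 5.51 and 9.24 in the saline animals. For both genes the groups overlapped widely and the highest value belonged to aspart animal 6. The difference in Hba-a1 was 2.19 ± 1.10 with all animals and 1.31 ± 1.01 without animal 6. For Hbb it was 2.11 ± 0.85 and 1.07 ± 0.63. Hbb had an unadjusted p of 0.019 with limma (adjusted p = 0.911). These SE and this p use the spread of all 4 groups and understate that of the aged animals. With all animals, the pooled SD among the aged was 3.14 for Hba-a1 and 2.53 for Hbb. The erythrocyte list had 5 of 6 tested members above 0 and a median of 0.59, which was 0.31 with 4 of 6 above 0 when animal 6 was left out. Blood left in the vessels is the usual source of these RNAs in brain tissue, and its part in the other values was not tested.

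Gabra6 had its whole spread in 1 animal. Its value was 9.54 in aspart animal 2 and between 4.502 and 5.48 in the other 14 aged animals. Other genes of the cerebellum were then looked at, after these values were seen. Cbln3, which is made by cerebellar granule neurons, stood at 6.59 in aspart animal 2 and at 4.11 to 5.14 in the others. Pcp2, a Purkinje cell gene, stood at 7.16 against 4.68 to 5.27. Car8, another Purkinje cell gene, stood at 6.96 against 5.63 to 6.50, while Cbln1 and Fat2 were within the range of the other animals. Their part in the comparison was not tested; without this animal there were 0 calls and 667 genes at an unadjusted p under 0.05.

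The insulin pathway was then described by role, from ligands to targets. In 8 lists with 138 listed genes, 118 were on the array and 110 were tested. None of the 110 was called, and 5 of them (4.55%) had an unadjusted p under 0.05, against 4.69% of all tested genes. The value was above 0 for 67 and below 0 for 43, with a median of 0.05 against 0.01 for all tested genes. Without aged aspart animal 6, 0 of the 110 had an unadjusted p under 0.05, against 2.79% of all tested genes, and 63 were above 0 with a median of 0.02. With control separation as a covariate the counts were 0 and 53, with a median of -0.002. A 1.5-fold change was excluded for 98 (89.1%) and a 2-fold change for 109, Igf2 being the exception.

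Among the ligands and their binding proteins, 8 of 12 were above 0 and 0 had an unadjusted p under 0.05. Igf1, insulin-like growth factor 1, had a log2 value of 6.56, 6.99 and 7.35 in the aspart animals and 6.43, 6.99 and 7.21 in the saline animals. The groups overlapped over nearly their whole range, and the difference was 0.05 ± 0.20. Igf2, a growth factor made largely by choroid plexus and meninges in the adult brain, differed by -0.10 ± 0.50, an interval that still allows a 2.16-fold decrease. That SE uses the spread of all 4 groups, and the pooled SD of Igf2 among the aged animals alone was 0.38. With the choroid plexus list mean as a covariate the difference in Igf2 was 0.36. Igfbp2, a carrier of these growth factors, differed by 0.02 ± 0.32. Igfbp5, another carrier, differed by 0.35 ± 0.17 in the aged and 0.40 ± 0.20 in the young animals, and did not pass in either.

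Insulin receptor RNA did not differ beyond its spread. Insr stood at 8.94, 9.20 and 9.70 in the aspart animals and at 8.91, 9.29 and 9.62 in the saline animals. The groups covered almost the same range, with 3 of 7 aspart animals above the saline mean. The difference was -0.07 ± 0.14, and its interval of -0.35 to 0.21 excluded a decrease of more than 1.27-fold and an increase of more than 1.16-fold. Leaving out single animals moved it between -0.14 and -0.02. The receptor for insulin-like growth factor 1, Igf1r, stood at 9.73, 10.03 and 10.20 in the aspart animals and at 9.90, 10.08 and 10.45 in the saline animals. Its groups overlapped too, with a difference of -0.10 ± 0.12 that excluded a 1.27-fold decrease and a 1.11-fold increase. The clearance receptor Igf2r differed by -0.04 ± 0.15, and Ide, the protease that degrades insulin and amyloid beta, by -0.05 ± 0.13. Bace1, which can also cleave the insulin receptor, differed by 0.08 ± 0.11, and Enpp1, an inhibitor of the receptor, by 0.16 ± 0.17. A 1.5-fold change was excluded for all 8 tested members of the receptor and protease list. Insrr, an orphan relative of the insulin receptor, was below the brightness limit, with levels of 3.80 to 5.21.

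Downstream of the receptor, the adaptor Irs1 differed by 0.15 ± 0.13 and Irs2 by 0.18 ± 0.15. Irs2 stood at 10.49, 10.76 and 11.65 in the aspart animals and at 10.29, 10.72 and 11.02 in the saline animals, so the medians lay close and the groups overlapped. Without aspart animal 6 its difference was 0.06 ± 0.14. Gab2, a scaffold adaptor, had an unadjusted p of 0.0446 and a difference of 0.32 ± 0.16, and Grb14, which binds and inhibits the activated insulin receptor, had 0.0315 and -0.24 ± 0.11. All 7 aspart animals were below the saline mean of Grb14, although its ranges of 9.88 to 10.22 and 10.09 to 10.54 overlapped. The adjusted p of both was 0.911 with limma. In the kinase tier, Pik3r1, the main regulatory subunit of PI3 kinase, differed by -0.07 ± 0.13, Akt1 by 0.13 ± 0.12 and Akt2 by 0.19 ± 0.11. Pik3r2, another regulatory subunit, differed by 0.37 ± 0.18 with an unadjusted p of 0.047. Without aspart animal 6 the differences were 0.17 ± 0.13 for Gab2, -0.21 ± 0.11 for Grb14 and 0.19 ± 0.15 for Pik3r2, all at an unadjusted p above 0.05.

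Among the inhibitors and targets, Ptpn1, the tyrosine phosphatase that switches the receptor off, differed by 0.18 ± 0.14. Gsk3b, the kinase that AKT restrains, had the tightest bound of the insulin genes named here. It stood at 15.46, 15.56 and 15.77 in the aspart animals and at 15.23, 15.53 and 15.73 in the saline animals, overlapping ranges, and its difference of 0.04 ± 0.08 excluded a decrease of more than 1.09-fold and an increase of more than 1.16-fold. Of the mTOR list, 9 of 13 were above 0, and Eif4ebp2, a repressor of translation (0.36 ± 0.17), and Ulk1, a kinase that starts autophagy (0.34 ± 0.16), had unadjusted p of 0.0357 and 0.0342. Neither passed the adjustment, and without aspart animal 6 they stood at 0.32 ± 0.17 and 0.20 ± 0.14, with unadjusted p of 0.0717 and 0.162. The median of the mTOR list was 0.08 with that animal and 0.01 without it. The transcription factors Foxo1 and Foxo3 differed by 0.12 ± 0.11 and 0.10 ± 0.12. Pdk4, a FOXO target that insulin lowers in peripheral tissues, differed by -0.19 ± 0.24 and was bounded only at a 1.59-fold decrease. Srebf1, the insulin-responsive regulator of fatty acid synthesis, differed by 0.22 ± 0.13 in the aged and 0.31 ± 0.15 in the young animals. The glucose transporters Slc2a1 of vessels and glia and Slc2a3 of neurons differed by -0.05 ± 0.16 and 0.08 ± 0.12. Slc2a4, the insulin-regulated transporter of muscle and fat, was below the brightness limit at 2.88 to 3.94 and was not tested.

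**Figure D3:**
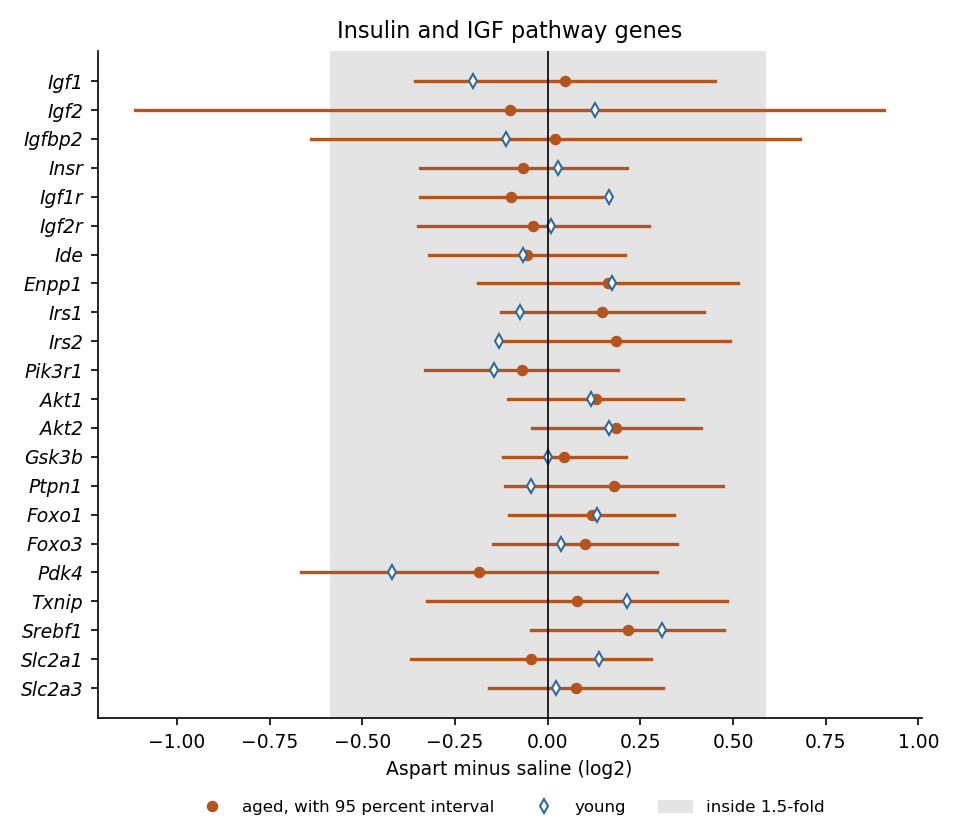
Aspart minus saline on the log2 scale for insulin and IGF pathway genes, ordered from ligands to targets. Filled circles with bars are the aged animals with 95% intervals, open diamonds are the young animals, and the shaded band is a change of less than 1.5-fold. The genes shown are a selection. All their intervals in the aged animals cross 0, and those of Igf2, Igfbp2 and Pdk4 leave the band. Of the 110 tested genes of the 8 insulin pathway lists, 12 leave the band. The intervals of Gab2, Grb14, Pik3r2, Eif4ebp2 and Ulk1, not shown, do not cross 0.

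The genes with the smallest p were also examined, 12 in each direction. Loxl3 came first. It encodes an enzyme of the lysyl oxidase family that cross-links collagen, and it stood at 5.14, 5.65 and 6.02 in the aspart animals and at 4.46, 4.97 and 5.49 in the saline animals. All 7 aspart animals lay above the saline mean, and the ranges overlapped. The difference was 0.70 ± 0.15, with a 95% interval of 0.40 to 0.99 and an unadjusted p of 2.87e-05, and limma's adjusted p was 0.329. Over the alternatives its lowest adjusted p was 0.0565, reached without aspart animal 3. Its level lay below the median of the negative control features, 6.38, in both groups. In the young animals the difference was -0.13 ± 0.17.

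The next genes on the higher side were Eif3f, a subunit of translation initiation factor 3 (0.45 ± 0.12), Nrbp1, a pseudokinase (0.46 ± 0.12), Limd2 (0.50 ± 0.14) and Cdk9, the kinase that releases paused RNA polymerase II (0.47 ± 0.13). Eif3f stood at 10.79, 11.11 and 11.70 in the aspart animals and at 10.60, 10.73 and 10.87 in the saline animals. Its saline animals lay close together, and 7 of 7 aspart animals were above their mean. Bag3, a co-chaperone that sends misfolded proteins to autophagy, stood at 7.22, 7.32 and 7.87 against 6.26, 6.92 and 7.31 in saline animals. Its difference was 0.55 ± 0.16 in the aged and -0.23 ± 0.19 in the young animals. The rest were Galnt4, Sema4c, Ggt7, Syce2, Rae1 and Cpne6, a calcium-binding copine of hippocampal neurons (0.34 ± 0.10).

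On the lower side, Or6c66b, an olfactory receptor gene, stood at 3.94, 5.11 and 5.54 in the aspart animals and at 4.98, 5.68 and 6.14 in the saline animals. Gfi1, a repressor of transcription known from blood cell development, stood at 5.32, 5.93 and 6.36 against 5.81, 6.73 and 7.21. The ranges overlapped for both, and all 7 aspart animals were below the saline mean. Both differed by -0.77, with SE of 0.18 for Or6c66b and 0.19 for Gfi1. Dnaaf10 differed by -0.51 ± 0.13, Nup107, a subunit of the nuclear pore, by -0.47 ± 0.13 and Acap2 by -0.46 ± 0.13. Hpgds, the prostaglandin D synthase of microglia, stood at 7.15, 7.80 and 7.87 against 7.78, 8.01 and 8.34 in saline animals, a difference of -0.39 ± 0.12. The rest were Pex11g, Fam199x, Ggact, Or1x2, Wars1 and Chfr. The adjusted p was 0.911 for 23 of these 24 genes, all but Loxl3, and 8 of the 24 had a mean over the aged animals below the median of the negative control features. Without aspart animal 6, all 24 kept their sign and an unadjusted p under 0.05. The 24 were picked for their small p in these same animals, so this result was likely beforehand and is no separate support.

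**Figure D4:**
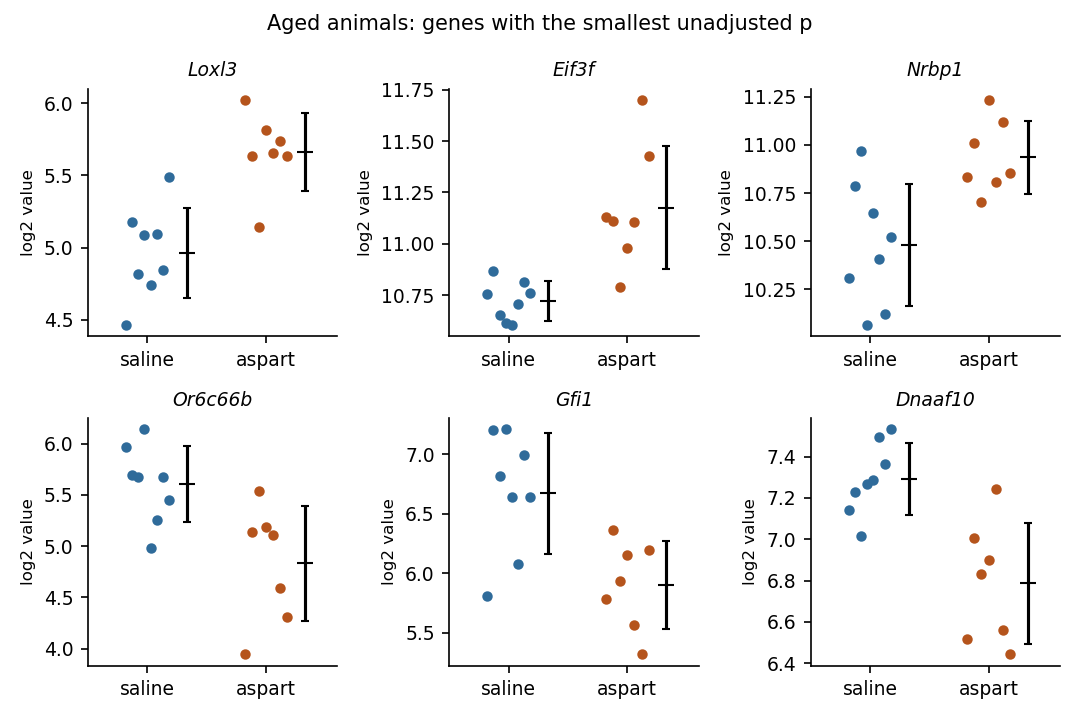
Log2 value of each aged animal for the 3 genes with the smallest unadjusted p in each direction. Each dot is 1 animal (8 saline, 7 aspart), black marks are the group mean and bars are 1 SD, and the vertical axes differ and do not start at 0. The groups overlap in all 6 genes.

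Complete separation of the groups was rare. The 7 aspart and 8 saline animals did not overlap in 2 genes, 0.0174% of those tested, with 1 gene in each direction (0.00871%). Tmem38a, an intracellular potassium channel, ran from 10.21 to 10.61 in the aspart animals and from 9.47 to 10.20 in the saline animals, a difference of 0.38 ± 0.12. Srp54a, a subunit of the signal recognition particle, ran from 10.62 to 11.63 and from 11.68 to 11.99, a difference of -0.37 ± 0.12. Both were named after their values were seen, and neither passed the adjustment (limma, adjusted p = 0.911).

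Over all 49 pathway and cell type lists, 694 of 898 listed genes were tested. None was called, 32 (4.61%) had an unadjusted p under 0.05, and a 1.5-fold change was excluded for 601 (86.6%). Values were above 0 for 430 and below 0 for 264, and 36 of the 49 list medians were above 0. Without aged aspart animal 6, 389 were above 0 and 13 (1.87%) had an unadjusted p under 0.05. With control separation as a covariate these counts were 357 and 24. A lean to one side was seen in oxidative phosphorylation, the respiratory chain and ATP synthase, where 34 of 41 genes were above 0 with a median of 0.09, against 53.3% and 0.01 for all tested genes. A single gene of it, Uqcrb of complex III (0.24 ± 0.11), had an unadjusted p under 0.05, and a 1.5-fold change was excluded for all 41. The lean was smaller without 1 array. The list mean was 13.14 in aspart animal 6 and 12.58 to 12.91 in the other aspart animals, against 12.62 to 12.77 in the saline animals. Without animal 6 the counts were 27 of 41 and the median 0.03, and with control separation as a covariate they were 16 of 41 and -0.03. The covariate is not a separate check from leaving out that animal. Over the 15 aged arrays the list mean and control separation had a Pearson correlation of 0.89. It was 0.21 without the 2 arrays farthest from the median separation. Whether array quality had a part in the lean was otherwise not tested.

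Other lists leaned to the higher side as well. All 9 tested cell division genes were above 0, with a median of 0.11 that ran from 0.08 to 0.15 when single aged animals were left out. The array held 18 genes of this list, and those too dim to test included Mki67, Cdk1 and Ccna2. The mean of the tested genes was 6.42 in the aspart and 6.29 in the saline animals. Both lay near the median of the negative control features, 6.38. Without aspart animal 6 there were 8 of 9 above 0, and with control separation as a covariate 6 of 9. Aurkb, a mitotic kinase, had the smallest p of this list, with a difference of 0.32 ± 0.15. Among myelin and oligodendrocyte genes 14 of 17 were above 0 with a median of 0.09, or 13 with a median of 0.11 without animal 6 and 10 with a median of 0.03 with the covariate. Sox10, the transcription factor of the oligodendrocyte lineage, differed by 0.39 ± 0.18. Of the amyloid, tau and lipoprotein list, 12 of 15 were above 0 with a median of 0.06, and 9 of 15 with a median of 0.03 after quantile normalization of the deposited arrays. Bace2, a protease related to beta-secretase, differed by 0.48 ± 0.19. None of these genes passed the adjustment.

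Immediate early genes, the transcripts that follow neuronal activity within minutes, gave a like pattern. Of 17 tested, 13 were above 0 with a median of 0.12, and without aspart animal 6 there were 11 with a median of 0.04. With control separation as a covariate the direction turned, with 8 above 0 and a median of -0.04. Egr3 had the smallest p of the list (0.43 ± 0.20), and its aspart range of 9.996 to 11.44 reached past the saline range of 9.59 to 10.36. Without aspart animal 6 the difference in Egr3 was 0.27 ± 0.19. Arc, a synaptic immediate early gene, differed by 0.02 ± 0.22, and Bdnf, the neurotrophin, by -0.01 ± 0.13.

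**Figure D5:**
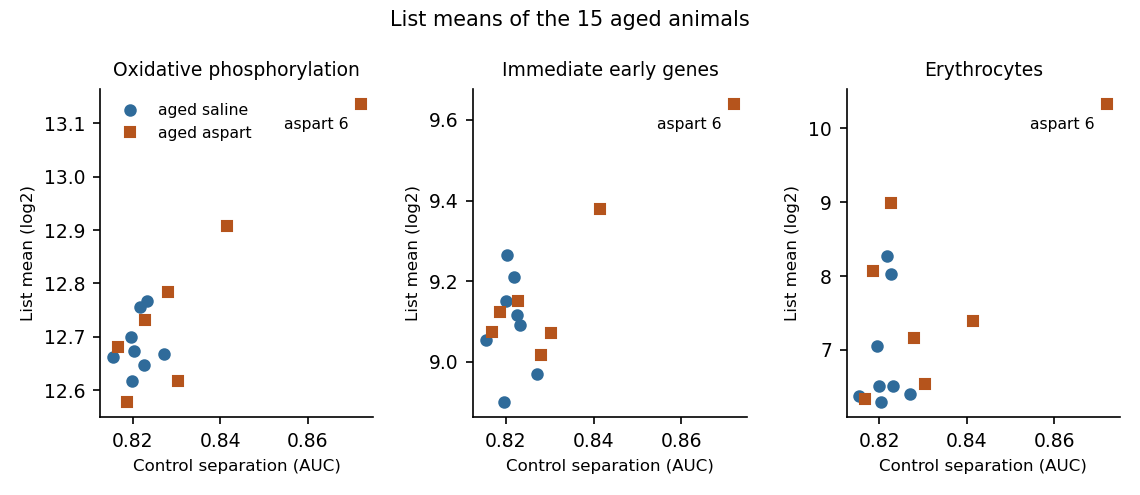
Mean log2 level of 3 gene lists (vertical axis) in each of the 15 aged animals against the separation of positive from negative control features on its array (horizontal axis, area under the curve). Circles are saline and squares are aspart animals. Aspart animal 6, at a separation of 0.872, has the highest mean of all 3 lists. The Pearson correlation is 0.89 for oxidative phosphorylation, 0.80 for immediate early genes and 0.65 for erythrocytes. Without the 2 arrays farthest from the median separation it is 0.21, -0.18 and 0.03.

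Synaptic genes gave values in both directions. In the glutamate receptor and postsynaptic list 17 of 28 were above 0. Shank2, a postsynaptic scaffold (0.42 ± 0.14), and Nlgn2, the neuroligin of inhibitory synapses (0.41 ± 0.15), were on the higher side, and Nlgn1, the neuroligin of excitatory synapses (-0.32 ± 0.12), on the lower. Shank2 stood at 10.04, 10.35 and 10.94 in the aspart animals and at 9.53, 9.94 and 10.23 in the saline animals. Its ranges overlapped by little, with 7 of 7 aspart animals above the saline mean. Slc17a7, the vesicular glutamate transporter, differed by 0.27 ± 0.11. Of the GABA list, 10 of 14 were below 0 with a median of -0.09, and Gabrb2, a receptor subunit, differed by -0.27 ± 0.12. That list's median ran from -0.13 without aspart animal 4 to -0.05 without aspart animal 6, and was -0.03 with control separation as a covariate. Without animal 6, Gabrb2 differed by -0.14 ± 0.10 and Nlgn2 by 0.26 ± 0.13. In the calcium list 18 of 32 were above 0, and Fkbp1b, which stabilises ryanodine receptors, differed by 0.01 ± 0.16. None of these passed the adjustment.

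Glial and immune genes were bounded likewise. Gfap, the astrocyte intermediate filament, stood at 14.38, 14.52 and 14.89 in the aspart animals and at 14.22, 14.39 and 15.06 in the saline animals, a difference of 0.10 ± 0.12 that excluded an increase above 1.26-fold. S100b (0.35 ± 0.12) and Glul, glutamine synthetase (0.21 ± 0.08), had the smallest p among 13 astrocyte markers. Of 11 microglial markers 8 were above 0, and a 1.5-fold change was excluded for all 11. Cd74, the invariant chain of MHC class II, stood at 6.64, 7.51 and 7.92 against 6.76, 7.17 and 7.61 in saline animals, and its difference of 0.21 ± 0.26 excluded an increase above 1.67-fold. Age differences in the saline animals rest on the same 8 aged saline arrays and are given side by side only. Chance variation in those arrays moves the age and aspart differences in opposite directions. Hpgds and Mpeg1 were also named for their small p in the aspart comparison, so opposite signs in them show no reversal of age. For Cd74 the age difference was 1.73 ± 0.27 and for Gfap 0.69 ± 0.12. For Hpgds it was 0.89 ± 0.13, beside an aspart difference of -0.39. Mpeg1, a pore-forming protein of macrophages and microglia, had an age difference of 1.07 ± 0.15 and an aspart difference of -0.31 ± 0.14.

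The effect of aspart was not shown to differ with age. The interaction had 0 calls among 11475 genes with limma and 203 genes at an unadjusted p under 0.05 (1.77%), and its smallest adjusted p was 1.00. A difference between the ages of more than 2-fold was excluded for 97.2% of genes and of more than 1.5-fold for 52.8%. The 5 genes with the smallest p were Efcab7, Loxl3, Scarf2, Rpp38 and Cdh7. Efcab7, an EF-hand protein, differed by 0.27 ± 0.16 in the aged and by -0.73 ± 0.19 in the young animals. Cdh7, a cadherin, differed by 0.40 ± 0.13 and -0.28 ± 0.15. Aged aspart levels of Cdh7 ran from 8.18 to 8.60 and saline levels from 7.80 to 8.38, so the aged groups overlapped.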

How the data were processed

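The authors deposited 1 table of log2 values per transcript cluster and array, from Affymetrix arrays of total RNA. Per the submitters' processing notes, RMA (robust multi-array averaging, which corrects background and normalizes quantiles) and Partek were used, with no version, genome build or annotation release named in the sources used here. The table does not state its logarithm's base, and 216 clusters had a mean above 16, more than a 16-bit scanner gives as log2 intensity. Folds are therefore on the table's own scale.

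Of 23188 transcript clusters, 15049 carried 1 symbol, 0 carried several and 8139 were unnamed. For 10 genes with several clusters the brightest was kept. A gene was kept where 5 or more arrays exceeded 5.06, the 30th percentile of all values, which removed 3562; this limit is not a detection limit, since 78.3% of the 1153 negative control features lay above it.

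One limma model (version 3.58.1, R 4.3.3) held the means of all 4 groups, with an intensity trend and 22 residual degrees of freedom, two-sided, with Benjamini-Hochberg adjustment over all tested genes and a threshold of 0.05. Intervals are at 95% from that fit, and the simultaneous ones use a Bonferroni correction. Named were the 12 genes with the smallest p in each direction, 5 for the interaction, the 10 with the largest spread, up to 3 of each list, all members of the receptor list, and 28 preset genes. LOC, RGD and like symbols were left out of the ranked parts. The scripts were tested on simulated data. The members and lists were chosen with earlier results of these data known. Each array is 1 animal, and the number of arrays limits the precision. Labels give no batch. No sequence was printed.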

Additional observations from a re-analysis of the deposited data

Results flagged for a closer look

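Single animals lay apart from the rest of their group in 16 of 216 sets of values examined; chance gives about 1 in 20, or 11. Of the 16, 7 were in aged aspart animal 6. That animal was highest for Cdk9 (9.66, next 9.05) and Gfap (14.89), and lowest for Hpgds (7.15, next 7.61) and Enpp1 (6.08, next 6.82). It also had the highest means of the MAP kinase list (10.45), the complement list (8.32) and the lymphocyte list (6.61).

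Aged saline animal 7 was highest for Gfap (15.06) and for the means of the interferon list (7.47) and the microglia list (9.23), and lowest for the means of the GABA list (12.72) and the calcium list (11.57). It was also the animal with the highest Ttr. Other single values were Wars1 in aged saline animal 2 (13.54, highest), Efcab7 in aged aspart animal 4 (7.6, highest), Gsk3b in aged aspart animal 2 (15.77, highest) and the mean of the pyruvate dehydrogenase and citric acid cycle list in aged aspart animal 5 (12.01, lowest).

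For Efcab7 and Rpp38, all aged aspart animals lay on one side of their saline mean and all young aspart animals on the opposite side. The difference between the ages was 1.00 for Efcab7 and -0.70 for Rpp38, and neither passed the interaction test after adjustment with limma.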

How the results depend on the processing

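No gene was called under any of 31 alternatives, 15 that left out 1 aged animal and 16 others, and no interaction was called in those that could test it; the fit of the aged arrays alone gives none. The share of genes with a 1.5-fold change excluded ran from 84.6% to 92.8% when animals were left out and from 86.7% to 94.2% otherwise. Genes at an unadjusted p under 0.05 numbered 320 (without aspart animal 6) to 805 (without aspart animal 3) when animals were left out. Testing all transcript clusters gave 824 among 17114, and the 5639 unnamed clusters alone gave 0 calls and 300. Deviations of aspart and saline animals with the same replicate number correlated from -0.13 to 0.21, and 1 of 7 aspart animals correlated best with its own number. The sample titles do not say what the numbers stand for, and weak correlations cannot exclude a pairing. The replicate block gave 0 calls, 573 genes at an unadjusted p under 0.05 and 89.8% excluded at 1.5-fold. Among 203 named genes, Igf2 and Kl turned to 0.36 and 0.17 with the choroid plexus list mean as a covariate. Of 49 list medians, 4 moved by more than their spread: the choroid plexus (-1.17) and erythrocyte (2.11) lists under the stricter filter, meningeal fibroblasts (0.20) with the choroid plexus covariate, and cholesterol synthesis (-0.06) with control separation. Centring arrays on the tested genes put 47.2% of genes above 0. Using control separation as a covariate, an alternative chosen after seeing the data, gave 432 genes at an unadjusted p under 0.05 and 50.0% above 0. The interval reached past 1.2-fold for 10561 of 11475 genes.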
